A study of Mus musculus with 40 samples.

Results

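Described here are 10 mouse genes of the NRF2 pathway and of antioxidant defence, chosen by name: *Nfe2l2*, *Keap1*, *Nqo1*, *Gclc*, *Gclm*, *Hmox1*, *Txnrd1*, *Srxn1*, *Cat* and *Sod1*. All 10 were found among the 21448 gene symbols of the probe counts. They were measured in livers of wildtype Crl:CD1(ICR) mice, an outbred stock, that were housed individually and given GenX, a short-chain perfluoroalkyl ether acid, in deionized water by oral gavage for 90 days. Control mice received deionized water (0 mg/kg bw/d), and the treated groups received a daily dose of 5, 0.5 or 0.1 mg/kg bw/d, with 5 male and 5 female mice in each group, the first by animal number. The age of the mice is not given in the sources used here. A single section of formalin-fixed, paraffin-embedded liver from each mouse was scraped and measured with TempO-Seq, an assay in which neighbouring short probes are ligated on their RNA and the ligated products are sequenced and counted. Each value therefore stands for the cells of a thin slice of liver, and in such bulk tissue fewer cells of a type and less RNA per cell cannot be told apart.

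NRF2, the product of *Nfe2l2*, is a transcription factor held at a low level by KEAP1, which binds it and hands it to a ubiquitin ligase for degradation. When electrophiles or oxidants modify KEAP1, NRF2 accumulates, pairs with small MAF proteins and binds antioxidant response elements near genes for quinone reduction, glutathione synthesis, thioredoxin recycling and haem breakdown. Catalase and superoxide dismutase remove hydrogen peroxide and superoxide, and in liver catalase sits mainly in peroxisomes, whose acyl-CoA oxidases release hydrogen peroxide.

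The library of a female mouse at 0.5 mg/kg (mouse 355, 6711981 reads) was left out because its total lay more than 2 SD below the mean, so that group held 4 mice. The other 39 libraries held 10341341 to 15562253 reads. Counts gathered at multiples of a first peak of 21 to 50 reads, and the total divided by that peak, an estimate of captured molecules, was 284218 to 649658. The estimate was not even across groups. Its median was 580385 at 5 mg/kg against 329378 in controls among males, 1.76 times as many, and 322975 against 420153 among females. Y-linked probes went against the labelled sex in 0 of the 39 libraries, and the 6 hepatocyte markers summed to 6332 to 10719 CPM in each of them. CPM are counts scaled to a common library size after TMM, and they are not compared between genes, since each probe captures its target with its own efficiency.

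Of the comparisons of a dose with control, males at 5 mg/kg held the only members that passed the test. *Nqo1* and *Txnrd1* rose there, and the other 8 members did not pass on their most counted probe. Tests were edgeR quasi-likelihood F-tests with Benjamini-Hochberg adjusted p below 10% over all probes, read on the most counted probe of each gene, for 12412 genes with that probe tested. The 2 members called in males at 5 mg/kg stand against 9.35% of all genes called there. The median log2 fold change was 0.36 over 9 members, without *Hmox1*, and 0.11 over all genes. Over all probes fitted, not 1 per gene, the median was 0.03 with DESeq2's size factors and 0 with no filter on low counts. With counts in molecules it was -0.0082. These probe sets differ from the 12412 genes, so their medians cannot be set directly against 0.11. Relative to 0.11, *Nqo1* rose by 2.23 and *Txnrd1* by 0.52 on the log2 scale. In females at 5 mg/kg, 0 members passed in edgeR against 4.09% of all genes, with 2 at an unadjusted p below 0.05 and 0 called by DESeq2. Of these 2, 1 was *Hmox1*, with 0 to 3 molecules per treated female. The log2 fold changes of all 9 members other than *Hmox1* were above 0 in females, with a median of 0.31 against -0.0078 over all genes, and 1 of them, *Gclm*, was below 0 when the probes of a gene were summed.

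**Figure D1:**
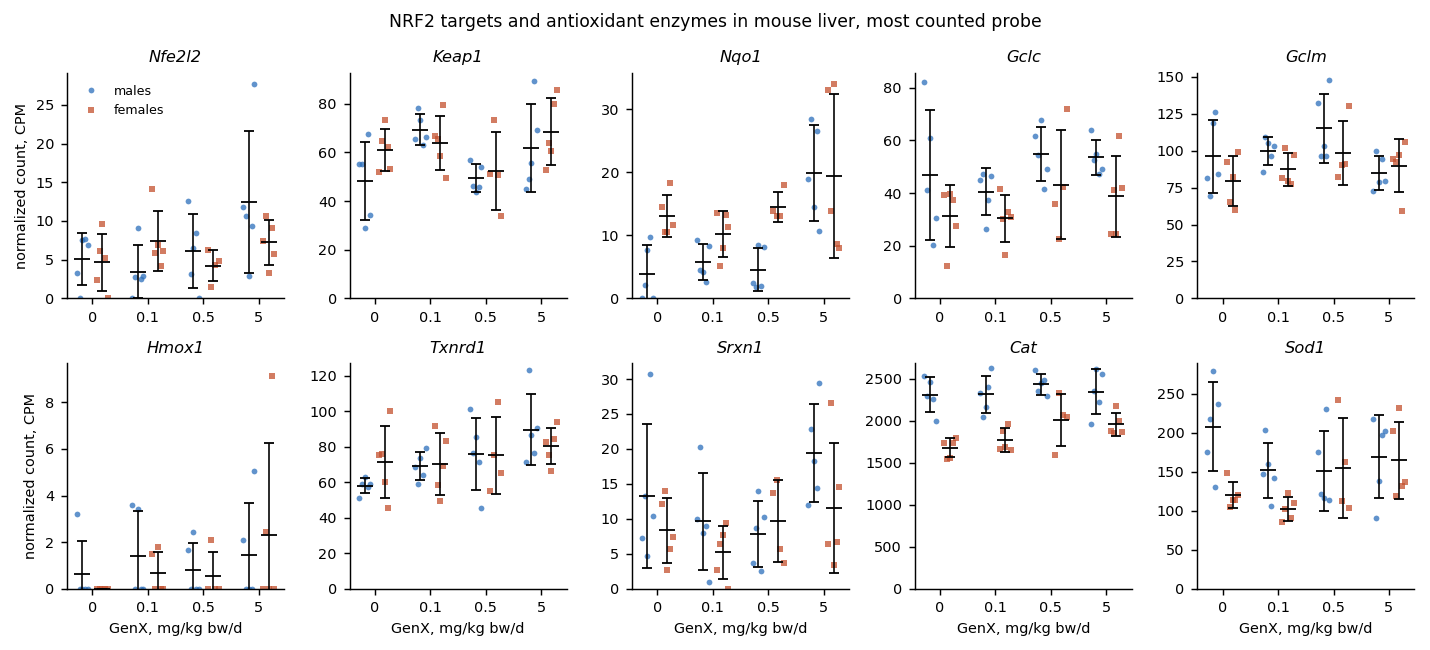
Normalized counts (CPM, linear axes from 0) of the 10 genes on their most counted probe by dose of GenX in mg/kg bw/d. Each point is a mouse (blue circles for males, orange squares for females), and black bars give the mean and SD of the group. *Nqo1* in males at 5 mg/kg lies between 10.7 and 28.5 CPM, above all other males, and *Cat* is lower in female than in male controls.

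At the lower doses no member passed in edgeR. In males at 0.1 mg/kg, 0.0403% of all genes were called, and 1 member, *Keap1*, had an unadjusted p below 0.05 (log2 fold change 0.53 ± 0.22 SE, n = 5 and 5, adjusted p = 0.350 by edgeR). In males at 0.5 mg/kg the share was 2.61%, and 0 members had an unadjusted p below 0.05. In females 0% of genes were called at 0.1 mg/kg, where 1 member (*Hmox1*) had an unadjusted p below 0.05. The share was 0.201% at 0.5 mg/kg, where 2 members did (*Cat* and *Hmox1*). For *Hmox1* both p values rest on 0 to 1 molecules per treated female, with all female controls at 0. DESeq2 called 0 members in these 4 comparisons.

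The members differ in how near they lie to the counting floor, which sets how firmly each can be read. *Cat* (2105 CPM on average over the 39 libraries) and *Sod1* (153 CPM) gave 530 to 1733 and 33 to 136 molecules per library. *Nfe2l2* (6.39 CPM) and *Nqo1* (11.3 CPM) gave 0 to 19 molecules, *Srxn1* (10.6 CPM) 0 to 20 and *Hmox1* (0.985 CPM) 0 to 3.

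The windows before the transcription start show where the core of the antioxidant response element occurs among these genes. RefSeq windows of 250 bases before to 50 bases after the start (GRCm38.p6) were matched by symbol for 8 of the members, in 10 windows. The core was searched as TGACNNNGC on both strands (GCNNNGTCA when read on the other strand), with no other motif. It was found in the 250 upstream bases of 4 of the 10 windows, and 10.2% of the 32851 windows of all genes hold it there. The 4 stretches are shown, 5′ to 3′ on the strand of the gene, with the core in capitals, because they belong to the regulator itself, to a member that passed the test and to a pair that did not:
Txnrd1 (start nearest to the core), chr10:82859088-82859148, plus strand: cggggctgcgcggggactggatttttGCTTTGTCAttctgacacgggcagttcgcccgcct
Gclm, chr3:122245397-122245457, plus strand: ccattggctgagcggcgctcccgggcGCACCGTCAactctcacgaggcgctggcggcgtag
Nfe2l2, chr2:75704869-75704913, minus strand: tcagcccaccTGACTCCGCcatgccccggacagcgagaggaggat
Sod1, chr16:90220680-90220740, plus strand: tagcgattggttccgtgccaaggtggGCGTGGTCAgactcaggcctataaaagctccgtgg
The core begins 92 bases before that start of *Txnrd1*, 134 before *Gclm*, 240 before *Nfe2l2* and 56 before *Sod1*. In *Srxn1* it begins 28 bases after the start, and the windows of *Nqo1*, *Keap1*, *Cat* and the other starts of *Txnrd1* do not hold these letters. A match is a description of the sequence, and binding was not measured.

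*Nfe2l2* (chr2:75675513-75704641) encodes NRF2 and was sparse in both sexes. Male controls had 3.26, 0, 7.49, 7.70 and 6.87 CPM, and males at 5 mg/kg had 11.8, 10.7, 2.9, 9.37 and 27.7 CPM. The treated males lay higher except for 1 mouse, and the groups overlapped. The log2 fold change was 1.30 ± 1.06 (SE), with a 95% interval of -0.84 to 3.44 and an adjusted p of 0.655 by edgeR. In females the interval was -1.48 to 2.74. Summed over mice, 40 *Nfe2l2* molecules were counted in males at 5 mg/kg against 8 in controls. Of the 40, 19 came from 1 mouse. The ratio per library molecule was 2.9, with an exact 95% interval of 1.34 to 7.18 that covers counting error only. The second probe of *Nfe2l2*, with at most 3 molecules per mouse in these groups, did not pass. Its means were 0.587 CPM in male controls and 2.49 CPM at 5 mg/kg, and 1.49 and 3.86 CPM in females.

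*Keap1* (chr9:21229730-21239361) encodes the protein that marks NRF2 for degradation. It ranged from 29.1 to 67.4 CPM in male controls and from 44.9 to 89.5 CPM in males at 5 mg/kg, with a log2 fold change of 0.36 ± 0.22 (SE, adjusted p = 0.386 by edgeR). In females, controls ranged from 51.8 to 73.2 CPM and the 5 mg/kg group from 52.7 to 85.7 CPM, with 0.17 ± 0.22 (SE). The groups of each sex overlapped. The second probe of *Keap1*, with at most 11 molecules per mouse in these groups, did not pass. Its means were 5.94 CPM in male controls and 10.6 CPM at 5 mg/kg, and 8.82 and 14.7 CPM in females.

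*Nqo1* (chr8:107388225-107403206) encodes NAD(P)H quinone dehydrogenase 1, which reduces quinones and is a standard NRF2 target. It has a single probe. Male controls had 0, 2.13, 7.72, 9.68 and 0 CPM, males at 0.1 mg/kg 2.58 to 9.21 CPM and males at 0.5 mg/kg 1.85 to 8.47 CPM. Males at 5 mg/kg had 18.9, 28.5, 14.5, 26.5 and 10.7 CPM. Each male at 5 mg/kg lay above every male of the other 3 groups, and the means were 19.8 ± 7.62 CPM at 5 mg/kg and 3.91 ± 4.52 CPM in controls (SD, n = 5). *Nqo1* and *Txnrd1* were the 2 members whose treated and control males did not overlap at 5 mg/kg, against 9.31% of all genes. The log2 fold change of *Nqo1* was 2.34 ± 0.75 (SE, n = 5 and 5), with a 95% interval of 0.83 to 3.84 and an adjusted p of 0.0479 by edgeR.

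These are few molecules. The males at 5 mg/kg had 7 to 19 *Nqo1* molecules each and the male controls 0 to 3, in all 60 against 6, a ratio of 5.80 per library molecule with an exact 95% interval of 2.52 to 16.4 that covers counting error only. The call ended without male control 102 (adjusted p = 0.119 by edgeR), without male 402 at 5 mg/kg (0.117), in a fit of only the 2 groups (0.209) and with mouse 355 included (0.160). Counted in molecules the probe fell under the filter on low counts. The males at 5 mg/kg also had the highest median of library molecules among the groups. The 4 cycling-cell markers, of which 1 was called higher, summed to 23.4 to 70.7 CPM there and to 0 to 2.71 CPM in male controls. The 6 hepatocyte markers, of which 2 were called lower, summed to 6385 to 7326 CPM and to 6804 to 8654 CPM in the same order. Their part in the result was not tested.

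**Figure D2:**
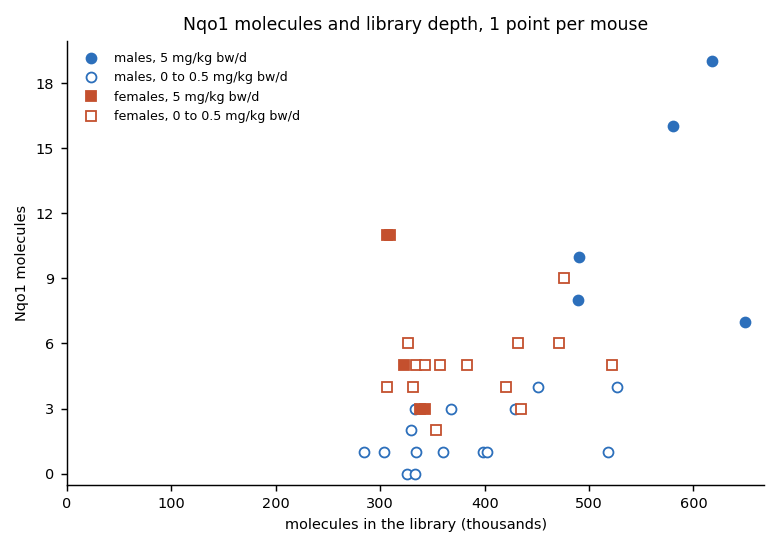
*Nqo1* molecules (vertical axis) against the molecules in the library (horizontal axis, scaled as its label states), 1 point per mouse, with blue circles for males and orange squares for females. Filled symbols are mice at 5 mg/kg and open symbols are mice at 0 to 0.5 mg/kg; the filled circles hold 7 to 19 *Nqo1* molecules, and no other male holds more than 4.

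In females, *Nqo1* did not pass the test at any dose. Female controls had 14.5, 10.6, 10.5, 18.3 and 11.7 CPM, and females at 5 mg/kg had 33, 13.8, 34, 8.56 and 7.97 CPM. A pair of treated females stood far above the controls and another pair below them. The log2 fold change was 0.57 ± 0.71 (SE), with a 95% interval of -0.86 to 2.01. All 5 female controls lay above all 5 male controls, with a log2 difference of 1.74 ± 0.74 (SE) and an adjusted p of 0.245 by edgeR. Between the sexes the response differed by -1.77 (females minus males, 95% interval -3.81 to 0.28, adjusted p = 0.481 by edgeR), so the response is not shown to differ.

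*Gclc* (chr9:77754535-77794485) and *Gclm* (chr3:122245557-122270732) encode the catalytic and modifier subunits of glutamate-cysteine ligase, the first enzyme of glutathione synthesis. Neither passed in any comparison on its most counted probe, although *Gclm* passed between 0.5 and 5 mg/kg in males when counted in molecules (log2 difference -0.45, adjusted p = 0.0584 by edgeR). *Gclc* ranged from 20.2 to 82.0 CPM in male controls and from 47.2 to 64.1 CPM in males at 5 mg/kg (log2 fold change 0.19 ± 0.31 SE), and from 12.4 to 39.5 CPM in female controls and from 24.5 to 61.7 CPM in females at 5 mg/kg (0.31 ± 0.31 SE). *Gclm* ranged from 69.5 to 126 CPM in male controls and from 73.0 to 100 CPM in males at 5 mg/kg (-0.17 ± 0.19 SE), with a 95% interval of -0.54 to 0.20. In females its log2 fold change was 0.17 ± 0.19 (SE), with an interval of -0.20 to 0.54. On the most counted probe, the intervals of *Gclc* end at 0.82 in males and 0.94 in females. The second probe of *Gclc*, with at most 8 molecules per mouse in these groups, did not pass at 5 mg/kg. In males it gave -1.02 (95% interval -2.54 to 0.50), opposite in sign to the most counted probe. There, 0 of 5 treated males lay above the control mean. In females it gave 0.99 (95% interval -0.53 to 2.51), with 4 of 5 treated females above all controls. The other probes of *Gclm* did not pass at 5 mg/kg either, and they lay on opposite sides of 0 in males. The least counted of them had 2.22 to 7.41 CPM in male controls and 6.49 to 14.3 CPM at 5 mg/kg, with 4 of 5 treated males above all controls and a log2 fold change of 0.94 (95% interval -0.39 to 2.28). The remaining probe of *Gclm* gave -0.39 in males (95% interval -0.85 to 0.08). In females the least counted probe gave -0.61 (95% interval -1.93 to 0.71) and the remaining probe -0.30 (95% interval -0.77 to 0.17). These female values were opposite in sign to that of the most counted probe.

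*Hmox1* (chr8:75093621-75100589) encodes haem oxygenase 1, which breaks down haem and is among the most inducible NRF2 targets. Its most counted probe had reads in 12 of the 39 libraries, with 0 to 3 molecules in each. All 5 female controls were at 0, and females at 5 mg/kg had 0, 2.43, 0, 9.14 and 0 CPM. Male controls had 3.19, 0, 0, 0 and 0 CPM, and males at 5 mg/kg had 2.09, 0, 0, 0 and 5.07 CPM. With every library at or under a floor of 3 molecules, no fold is given, and a change of *Hmox1* was not detectable at this depth.

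*Txnrd1* (chr10:82833951-82897712) encodes the cytosolic thioredoxin reductase, which passes electrons from NADPH to thioredoxin. Male controls had 51.3, 59.2, 63.0, 57.0 and 58.9 CPM, and males at 5 mg/kg had 71.6, 123, 86.6, 76.5 and 90.3 CPM. Each treated male lay above each control. The log2 fold change was 0.63 ± 0.21 (SE, n = 5 and 5), with a 95% interval of 0.21 to 1.05 and an adjusted p of 0.0612 by edgeR. At 0.1 and 0.5 mg/kg the means were 68.9 ± 7.91 and 76.0 ± 20.6 CPM (SD, n = 5), between the control mean of 57.9 ± 4.27 and the 5 mg/kg mean of 89.6 ± 20.1 CPM (SD, n = 5), and neither passed.

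The other probes of *Txnrd1* did not pass in males at 5 mg/kg, with log2 fold changes of 0.36 ± 0.26 (SE, adjusted p = 0.541 by edgeR) and 0.17, with a 95% interval of -2.24 to 2.58 for the latter. The call on the most counted probe also ended with DESeq2's size factors (adjusted p = 0.118 by edgeR), with no filter on low counts (0.111), with mouse 355 included (0.124) and without male 101 (0.137), 104 (0.107) or 402 (0.229), and the log2 fold change was 0.48 without 402. In females, *Txnrd1* ranged from 45.3 to 100 CPM in controls and from 66.5 to 93.7 CPM at 5 mg/kg, with 0.17 ± 0.21 (SE). The difference between the sexes was -0.46 (95% interval -1.05 to 0.14), and the response is not shown to differ.

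*Srxn1* (chr2:152105516-152111376) encodes sulfiredoxin, which repairs overoxidized peroxiredoxins. Male controls had 7.2, 13.3, 4.6, 30.7 and 10.4 CPM, and males at 5 mg/kg had 12, 22.8, 18.3, 14.4 and 29.5 CPM. Each treated male lay above at least 3 of the 5 controls, and the highest control lay above them all. The log2 fold change was 0.55 ± 0.72 (SE), with a 95% interval of -0.89 to 2.00. In females it was 0.47 ± 0.72 (SE), with an interval of -0.98 to 1.91. The second probe of *Srxn1* had at most 5 molecules per mouse in these groups and did not pass. Its means were 0.488 CPM in male controls and 3.88 CPM at 5 mg/kg, with 4 of 5 treated males above all controls. In females they were 0.527 and 1.58 CPM.

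*Cat* (chr2:103453849-103485160) encodes catalase, and its 2 probes differed in males. On the most counted probe, male controls had 2540, 2300, 2460, 2260 and 2000 CPM, and males at 5 mg/kg had 1960, 2360, 2620, 2230 and 2560 CPM. The groups overlapped throughout, and the log2 fold change was 0.02 ± 0.10 (SE), with a 95% interval of -0.19 to 0.23; with DESeq2's size factors it was -0.05. On the second probe, male controls had 1150, 1070, 1520, 1170 and 1080 CPM, and males at 5 mg/kg had 833, 972, 1020, 911 and 814 CPM. Here all 5 treated males lay below all controls, and the probe fell by 0.40 on the log2 scale (SE 0.12, adjusted p = 0.0360 by edgeR). At 0.1 and 0.5 mg/kg its male means were 1001 and 992 CPM, against 1199 CPM in controls, and neither dose passed. There, 2 of 5 and 4 of 5 treated males lay below all controls.

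In females, both probes of *Cat* had log2 fold changes of like size at 5 mg/kg, 0.22 ± 0.10 (SE, adjusted p = 0.258 by edgeR) and 0.23 ± 0.12 (SE, adjusted p = 0.353 by edgeR). On the most counted probe, female controls had 1740, 1550, 1560, 1740 and 1800 CPM and females at 5 mg/kg 1880, 1860, 2180, 2000 and 1870 CPM. *Cat* was the 1 member whose groups did not overlap in females at 5 mg/kg, against 3.71% of all genes. The difference between the sexes in the response was 0.20 (females minus males, 95% interval -0.09 to 0.50) on the most counted probe and did not pass. On the second probe it was 0.63 (95% interval 0.28 to 0.97, adjusted p = 0.0850 by edgeR) and passed.

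**Figure D3:**
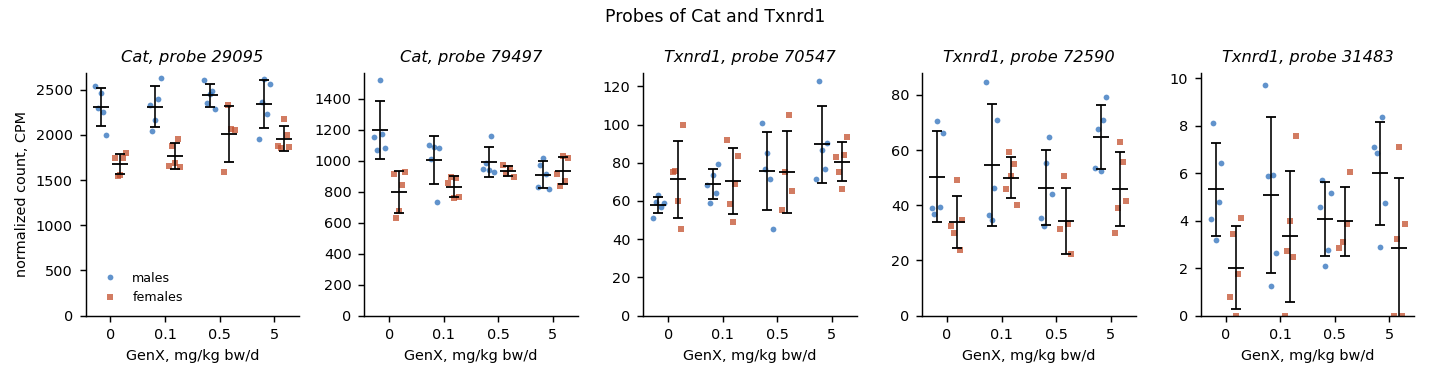
Normalized counts (CPM, linear axes from 0) by dose of GenX in mg/kg bw/d for the 2 probes of *Cat* and the 3 probes of *Txnrd1*, 1 point per mouse (blue circles for males, orange squares for females) with the mean and SD in black. The second probe of *Cat* has a mean of 1199 CPM in male controls and 909 CPM in males at 5 mg/kg, whereas the first stays at 2313 and 2347 CPM.

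*Sod1* (chr16:90220754-90226329) encodes the cytosolic copper-zinc superoxide dismutase. Male controls had 175, 217, 279, 130 and 237 CPM, and males at 5 mg/kg had 218, 90.9, 138, 197 and 202 CPM. Female controls had 148, 104, 114, 114 and 120 CPM, and females at 5 mg/kg had 202, 119, 231, 132 and 137 CPM. Controls and treated mice overlapped in both sexes, with log2 fold changes of -0.30 ± 0.23 (SE, adjusted p = 0.621 by edgeR) in males and 0.45 ± 0.23 (SE, adjusted p = 0.308 by edgeR) in females. The response of females minus that of males was 0.75 (95% interval 0.09 to 1.41, adjusted p = 0.332 by edgeR). The second probe gave 0.13 ± 0.22 and 0.26 ± 0.22 (SE).

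**Figure D4:**
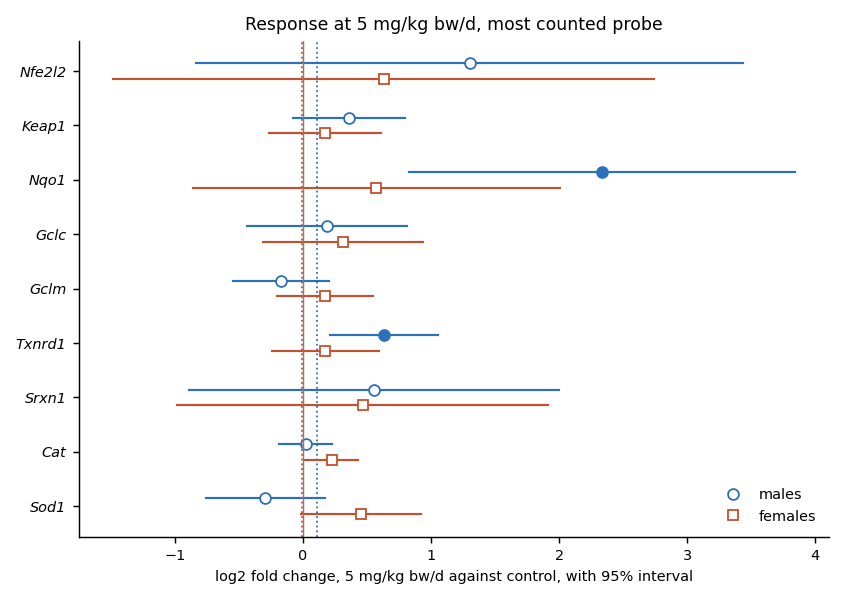
Log2 fold change at 5 mg/kg bw/d against control with its 95% interval for 9 members (blue circles for males, orange squares for females; filled where the adjusted p was below 10%). Dotted lines mark the median of all genes, 0.11 in males and -0.0078 in females; *Hmox1* is left out because it lay at the counting floor. The intervals of *Nqo1* and *Txnrd1* in males and of *Cat* in females lie above 0, and those of *Nfe2l2* and *Srxn1* are wide.

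Without GenX the sexes differed in *Cat* and *Sod1*, both lower in females on the most counted probe. These were the 2 members called, against 3.89% of all genes, and the 2 members whose control groups did not overlap, against 4.06%, were *Cat* and *Nqo1*. *Cat* was lower in female than in male controls by a log2 difference of -0.46 ± 0.10 (SE, n = 5 and 5, adjusted p = 0.00418 by edgeR), and its second probe gave -0.59 ± 0.12 (SE, adjusted p = 0.00190). *Sod1* differed by -0.79 ± 0.23 (SE, adjusted p = 0.0556 by edgeR), but its second probe by 0.08 ± 0.22 (SE), and the control groups of its most counted probe overlapped between 130 and 148 CPM. The call of *Cat* ended with mouse 355 included (adjusted p = 0.863 by edgeR). That of *Sod1* ended there too (0.253), with probes summed (0.122) and without any of the controls 102, 103, 105, 152, 153 and 154 (0.106 to 0.203).

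The step from 0.5 to 5 mg/kg and the difference of the sexes called no member in edgeR. From 0.5 to 5 mg/kg in males, 3.01% of all genes were called, 2 members had an unadjusted p below 0.05 (*Nqo1* and *Gclm*), and DESeq2 called 1, *Nqo1*. *Nqo1* differed by 2.11 ± 0.74 (SE, adjusted p = 0.183 by edgeR) and *Gclm* by -0.43 ± 0.19 (SE, adjusted p = 0.297). In females 1.38% were called, and 0 members had an unadjusted p below 0.05. For the difference of the sexes in the response, the shares of genes called with rising dose were 0%, 0.322% and 1.19%. An unadjusted p below 0.05 was found for 0, 1 and 1 members, *Sod1* in both cases. DESeq2 called 0 members in these comparisons and in females at 5 against 0.5 mg/kg.

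Around the members stand genes of the same chemistry, 66 in 8 lists, of which 63 were tested. At 5 mg/kg, 16 were higher and 6 lower in males, where 9.35% of all genes were called, and 11 were higher and 1 lower in females, where 4.09% were. Their median log2 fold changes were 0.16 in males and 0.26 in females, beside 0.11 and -0.0078 over all genes. At 0.5 mg/kg, 9 were higher and 2 lower in males and 0 were called in females. At the lowest dose 0 were called in either sex.

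The glutathione list had 5 tested genes, of which 2 were called in males, *Gpx4* and *Gsr*, and 1 in females, *Gpx4*. *Gpx4*, the peroxidase that reduces lipid hydroperoxides, had 95.2 to 151 CPM in male controls and 211 to 312 CPM in males given 5 mg/kg. Its log2 fold change was 1.13 ± 0.17 (SE, adjusted p = 2.76e-06 by edgeR), and 0.82 ± 0.17 (SE) in females. *Gsr*, glutathione reductase, rose by 0.65 ± 0.13 (SE) in males. Of the 10 genes of the thioredoxin and peroxiredoxin list, 1 was called, *Prdx1*, higher by 0.33 ± 0.11 (SE) in males, a share near the 9.35% of all genes, and 0 in females. Of the 6 genes of NADPH supply, 1 was called, *Me1*, malic enzyme, which had 53.4 to 143 CPM in male controls and 317 to 610 CPM at 5 mg/kg, and log2 fold changes of 2.31 ± 0.31 in males and 2.29 ± 0.31 in females (SE).

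*Nfe2l1*, the NRF2 relative NRF1, was the 1 called of 8 partners and regulators of NRF2, in males again a share near that of all genes. It was higher by 0.62 ± 0.12 (SE) in males and 0.39 ± 0.12 (SE) in females. The ferritin chains *Ftl1* and *Fth1*, which store iron, were the 2 called of 6 in the haem and iron list. Over all genes 9.35% were called in males and 4.09% in females. In males these 2 were the only genes of the list above 0, and its median was -0.14 against 0.11 over all genes. In females 4 of the 6 were above 0, with a median of 0.44 against -0.0078. The log2 fold changes were 0.92 ± 0.11 (males) and 0.56 ± 0.11 (females) for *Ftl1*, and 0.69 ± 0.10 and 0.32 ± 0.10 for *Fth1* (SE). *Ftl1* has near-identical copies, so its reads may be shared with them. Of *Sod2*, *Sod3* and the copper chaperone *Ccs*, 1 was called, *Sod2*, the mitochondrial superoxide dismutase, which rose by 0.36 ± 0.12 (SE, adjusted p = 0.0975 by edgeR) in females.

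Of the 17 detoxification targets, 8 were higher and 3 lower in males and 4 were higher and 0 lower in females, with medians of 0.82 and 0.46. Over all genes 9.35% were called in males and 4.09% in females. The genes named next were all higher in males. Among the 3 lower ones, *Gstp1* fell by 1.73 (SE 0.21) and is described under other observations. *Ephx1*, microsomal epoxide hydrolase, had 118 to 383 CPM in male controls and 429 to 893 CPM at 5 mg/kg, and 96.1 to 146 CPM in female controls and 309.5 to 601 CPM at 5 mg/kg. All treated mice lay above the controls of their sex, with log2 fold changes of 1.43 ± 0.23 and 1.86 ± 0.23 (SE). The glutathione transferases *Gsta1* and *Gsta2*, near-identical copies whose reads may be shared, rose in males by 3.43 ± 0.99 and 1.32 ± 0.42 (SE), and *Gsta2* in females by 1.82 ± 0.43 (SE). *Abcc4*, an export pump, was at 0 in all male controls and at 1.56 to 14.1 CPM in males at 5 mg/kg.

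Among 8 peroxisomal oxidases, sources of the hydrogen peroxide that catalase removes, 1 was higher and 3 lower in males and 1 was higher and 1 lower in females. *Pipox* fell by 1.29 on the log2 scale in males (SE 0.17) and by 0.58 in females (SE 0.17), and *Hao1* by 0.67 in males (SE 0.14). *Acox2* rose by 0.90 ± 0.29 (SE) in females. *Hao2* was at 0 in all male controls and at 2.43 to 33.9 CPM in males at 5 mg/kg, whereas female controls had 19.3 to 122 CPM.

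**Figure D5:**
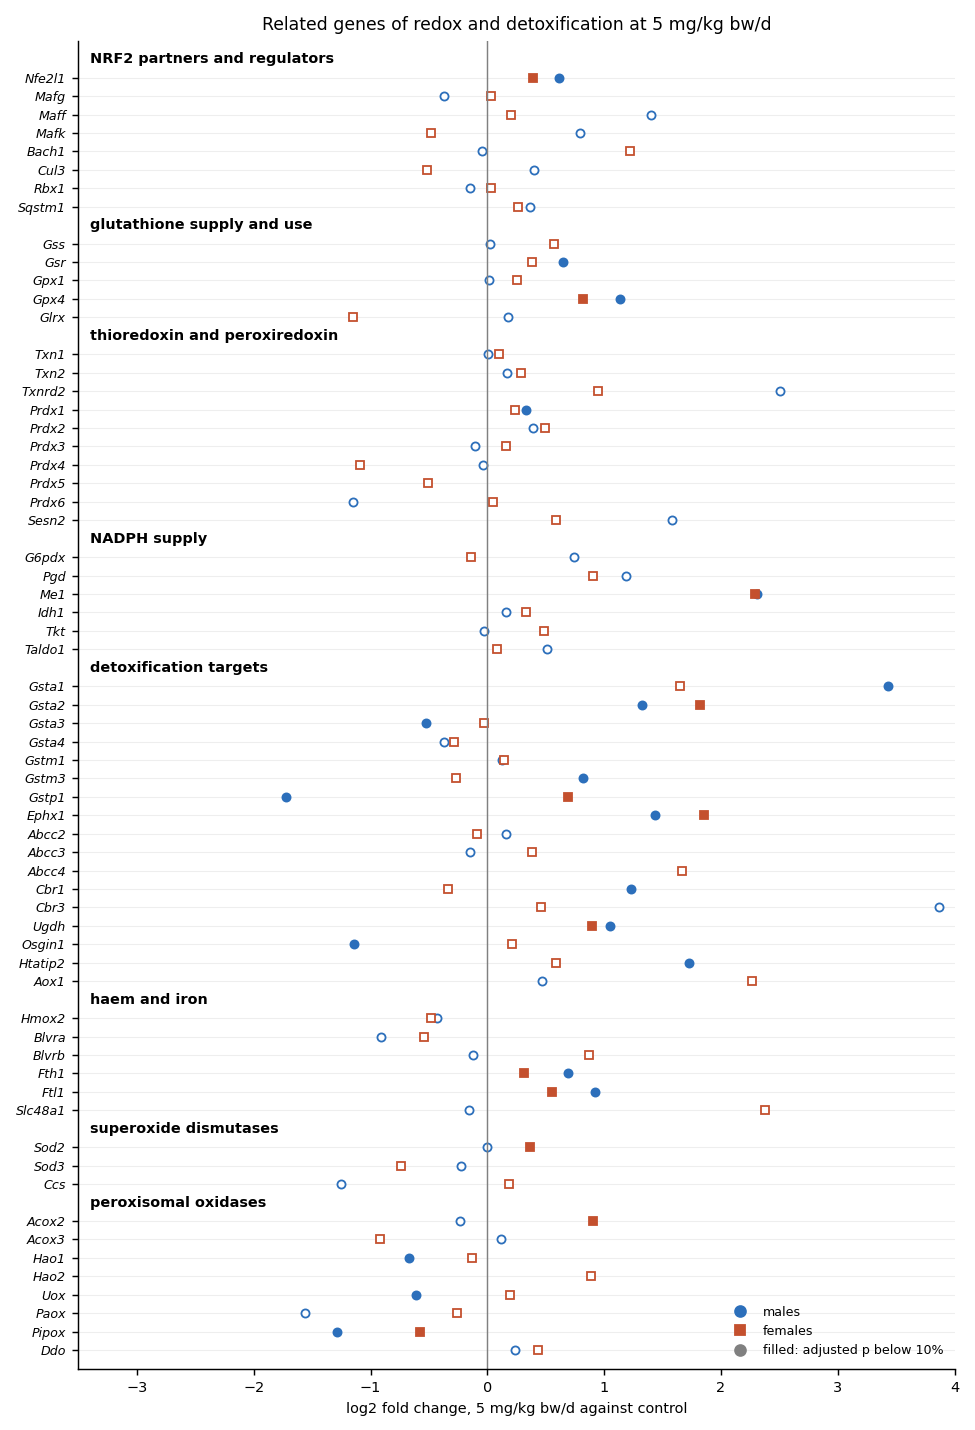
Log2 fold change at 5 mg/kg bw/d against control for 63 related genes in 8 lists (blue circles for males, orange squares for females; filled where the adjusted p was below 10%). Of the values, 3 are left out because the controls or the treated mice had no reads. *Me1*, *Ephx1*, *Gsta2*, *Gpx4* and the ferritin chains lie to the right in both sexes, *Pipox* to the left, and *Gstp1* lies on opposite sides.

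The genes whose log2 CPM followed *Nqo1* most closely over the 39 libraries, out of 12402, were *Tmem98* (Pearson's r = 0.76), *Lum* (0.73) and *Cyp2a4* (0.70). The libraries share the groups, the sexes and their depth, and each value is a description. For *Hmox1*, which by the same rule was taken for its smallest p among members in females, the closest were *Nsg1* (0.60), *Hus1b* (0.58) and *Nck2* (0.57), over a gene with reads in 12 libraries.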

How the data were processed

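Liver RNA of 40 mice was measured with TempO-Seq. The authors deposited raw counts, the reads assigned to each of 30146 probes in each mouse, not normalized. The submitters' processing notes name bcl2fastq 2.17.1.14, Bowtie and build mm10.

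Counts were tested in R 4.3.3 with edgeR 4.0.16: TMM scaling, default filter on low counts, a coefficient per group, all 8 groups in a single fit, and the quasi-likelihood F-test. P values are two-sided and Benjamini-Hochberg adjusted over 17877 probes, with a threshold of 10%. All 21 probes of the members were tested. SE is the log2 fold change over the root of F. DESeq2 1.42.0, the tool of the study, was an alternative, with other scaling, no filter, all 40 libraries, only the groups compared, probes summed, counts in molecules and each mouse left out. Counts thinned to a common number of molecules were added after seeing the data. Log2 CPM used a prior count of 2, and molecules came from a histogram smoothed with an SD of 2 reads. Both tools and the peak finder were tested on simulated data. For the tools, the probes given a change all had a higher mean CPM than *Nqo1*, *Srxn1*, *Nfe2l2* and *Hmox1*. Their simulated reads did not gather at multiples of a peak. That test therefore does not cover these 4 members. Replicates are separate mice. Reads carry no molecular identifiers, so numbers of molecules are estimates. Intervals on molecules sum over the mice of a group, so they cover counting error only and not the spread between mice.

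The 10 members and the lists of related genes and cell markers were chosen with earlier results of these data known. Of the related genes, those named are at most the 4 per list with the largest absolute log2 fold change among those called at 5 mg/kg in at least 1 sex; *Gstp1* was named after its values were seen. Positions are those of GENCODE for GRCm38.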

Additional observations from a re-analysis of the deposited data

Results flagged for a closer look

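In 4 of 80 groups tested over the members, the mouse farthest out stood apart from the rest of its group. Chance alone gives about 1 in 20 where values are normally distributed. That rate does not hold for the flags of *Nfe2l2* and *Hmox1*, which rest on mice at 0 CPM. The gap to the nearest mouse over the range of the group was 0.789 for *Nfe2l2* in male control 102, which had 0 CPM and no molecule. It was 0.763 for *Gclm* in female 454 at 5 mg/kg, the lowest with 59.0 CPM beside 92.2 CPM in the next. It was 1 for *Hmox1* in male control 101 and in female 352 at 0.5 mg/kg, in each case the only mouse of the group with reads.

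Among the members, the related genes named by rule and *Gstp1*, the response differed between the sexes in its own test for 4 genes. For the second probe of *Cat* at 5 mg/kg the response of females minus that of males was 0.63, while the most counted probe gave 0.20 and did not pass. For *Fth1* at 0.5 mg/kg it was -0.63 (SE 0.15, adjusted p = 0.0487 by edgeR), from 0.52 in males and -0.12 in females. For *Hao2* at 5 mg/kg it was fitted as -10.35, a value that depends on the prior count because all male controls were at 0, and that is no bound. For *Gstp1* at 5 mg/kg it was 2.42 (SE 0.30, adjusted p = 7.06e-07 by edgeR). The second probe of *Gstp1* also passed, with 2.10 (adjusted p = 9.77e-05 by edgeR). A further 2 detoxification targets outside the rule for named genes, singled out after their values were seen, also passed at 5 mg/kg, *Gstm3* with -1.09 (adjusted p = 0.00269 by edgeR) and *Cbr1* with -1.57 (adjusted p = 0.00692 by edgeR).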

How the results depend on the processing

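Of 243 recomputed counts of members called, 221 stayed within 1.5 times the reported one. Most reported counts were 0, and a 0 that stayed 0 was taken as unchanged, so this share says little about the calls made. Where 2 members were called, leaving out 1 mouse changed the count in 4 of 10 cases in males at 5 mg/kg. Between the controls it changed in 6 of 10. In males at 5 mg/kg the 2 members became 1 with DESeq2's size factors, with no filter, in molecules and in a fit of only the groups compared, and 0 with all 40 libraries, and leaving out 1 mouse gave 0 to 2, with 0 without male 402. Between 0.5 and 5 mg/kg in males, 0 became 1, which was *Nqo1* with DESeq2, with no filter and with only the groups compared, and *Gclm* in molecules. In females at 5 mg/kg, 0 became 1 (*Cat*) in thinned molecules. Between the controls, 2 became 0 with all 40 libraries and 1 with probes summed, and leaving out 1 mouse gave 1 to 2. The cause was not tested. Of 1082 recomputed single values of members at a dose against control, other probes included, 12 lost their call, 2 gained one (*Keap1* in males, 0.55, and *Cat* in females, 0.26, at 5 mg/kg in thinned molecules), and 1 was called with the opposite sign, the second probe of *Cat* in males at 5 mg/kg with -0.40. A further 109 changed sign with no call. Among the related genes, the counts higher and lower in males at 5 mg/kg became 13 and 2 with all 40 libraries. In females at 5 mg/kg the 11 and 1 became 5 and 0 with all 40 libraries, 6 and 0 with only the groups compared, 7 and 0 with no filter, 15 and 0 in thinned molecules and 17 and 2 in molecules. In males at 0.5 mg/kg the 9 and 2 became 3 and 0 with all 40 libraries and 11 and 4 in molecules. In females at 0.5 mg/kg 0 became 1 higher with DESeq2, with probes summed and in thinned molecules, and 2 with no filter and in molecules. At 0.1 mg/kg 0 became 1 higher and 1 lower with DESeq2 and 1 higher with probes summed in males, and 1 higher with no filter in females. With DESeq2's size factors 62.7% of probes called in males at 0.5 mg/kg were higher, against 73.2% with TMM. *Nqo1*, *Nfe2l2* and *Srxn1* were not tested in molecules, since they fell under the filter, and few molecules limit these genes and *Hmox1*. No paired analysis was possible because the groups share no replicate numbers.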

Other observations

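*Gstp1*, a pi-class glutathione transferase and a known NRF2 target, moved in opposite directions in the sexes at 5 mg/kg. Male controls had 4780, 2640, 6060, 6530 and 8570 CPM, and males at 5 mg/kg had 2010, 1570, 1660, 1810 and 1580 CPM. Female controls had 455, 490, 474, 384 and 553 CPM, and females at 5 mg/kg had 520, 840, 864, 742 and 830 CPM. All treated males lay below the male controls, and 4 of the 5 treated females lay above the female controls. The gene fell by 1.73 on the log2 scale in males (SE 0.21, adjusted p = 2.54e-08 by edgeR) and rose by 0.69 in females (SE 0.21, adjusted p = 0.0584). Between the controls, females minus males, the difference was -3.60 ± 0.23 (SE). The second probe of *Gstp1* gave -1.35 and 0.75, and the probe of its near-identical neighbour *Gstp2*, with which reads may be shared, gave -1.66 ± 0.75 in males and -0.11 ± 0.76 in females (SE) and did not pass. The gene was singled out after its values were seen.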
